A study of Mus musculus with 6 samples.

Results

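The genes described here are the nuclear-encoded subunits and assembly factors of respiratory complex I, taken as every row of the deposited count table whose gene symbol begins with Nduf. There were 42 such rows among 23079, of which 38 were subunit genes (Ndufa, Ndufb, Ndufc, Ndufs and Ndufv) and 4 were assembly factor genes (Ndufaf1 to Ndufaf4). All 42 passed the filter on low counts and were tested. Ndufa4 and Ndufa4l2 carry the name but belong, by current assignment, to cytochrome c oxidase (complex IV) biology, so 36 of the subunit genes encode accepted complex I subunits.

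The libraries are labelled as midbrain dopaminergic neurons of C57BL/6 mice aged 4 months. The mice carry the Dat bacTRAP transgene, in which dopamine transporter sequences drive a tagged ribosomal protein, but no label states that ribosomes were captured. The substantia nigra pars compacta (SNpc) and ventral tegmental area (VTA) were dissected from slices of 1 mm, and the labels do not say which of them a library came from. In 3 libraries (knockdown) the adeno-associated virus AAV1 carried a Satb1 hairpin RNA (shRNA) with EGFP, and in the other 3 (control) a scrambled hairpin with EGFP. Both groups therefore share the transgene, the strain, the viral injection and the EGFP marker. The labels name 3 mice for the 6 libraries without tying libraries to mice, so the spread that the p-values rest on is that of these 6 libraries and may be technical.

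Complex I is the NADH dehydrogenase of the inner mitochondrial membrane. It passes electrons from NADH through flavin and iron-sulfur clusters to ubiquinone and pumps protons as it does so. Its matrix arm holds the NADH-oxidising N module and the ubiquinone-reducing Q module, and its membrane arm holds the proton pumps, whose core is encoded by mitochondrial DNA. The nuclear genome encodes 7 core subunits, which carry the catalytic centres, and many accessory subunits that stabilise the complex. Dopamine neurons of the substantia nigra are known for their sensitivity to complex I inhibitors such as MPP+ and rotenone.

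Satb1, which encodes a nuclear protein that folds chromatin at AT-rich sites, was the hairpin's target. It had 82.9, 166 and 61.2 CPM in knockdown libraries 1 to 3, against 351, 349.6 and 319.8 CPM in control libraries 1 to 3. Every knockdown library was below every control library, with knockdown library 2 the highest of its group, and the log2 fold change was -1.72 ± 0.27 (SE; adjusted p = 0.00106). Levels are in CPM, each count as a rate of its library's total after scaling by the trimmed mean of M-values (TMM), fold changes are knockdown over control, and a gene is called when its edgeR quasi-likelihood p, adjusted by Benjamini-Hochberg over 16766 tested genes, is under 0.05. Values per library stand in the order of libraries 1 to 3, and the value after a log2 fold change and ± is its SE. Total counts were between 147486754 and 164554674 in knockdown libraries and between 160792736 and 170351145 in control libraries, so that 1 count was worth between 0.00557 and 0.00672 CPM. The 12 markers of dopamine neurons were all detected, and their summed level was between 11030 and 13940 CPM in knockdown libraries and between 17360 and 19980 CPM in control libraries, with 6 called lower and none higher. Of 10 oligodendrocyte markers, 8 were called higher, with sums between 599 and 679 CPM in the knockdown and between 386 and 443 CPM in the control. Of 8 astrocyte markers 2 were higher and 1 lower, of 9 microglia markers 1 was higher and 1 lower, of 7 markers of other neurons 1 was higher, and of 9 vessel markers edgeR called 0, with 0 at an unadjusted p under 0.05. Over all tested genes 12.6% were called lower and 8.48% higher. Log2 fold changes were above 0 for 7 astrocyte markers and below 0 for 1 (median 0.575). They were above 0 for 8 and below 0 for 1 both of the microglia markers (median 1.00) and of the vessel markers (median 0.838). Of the markers of other neurons 6 were above 0 and 1 below (median 0.171). Slc1a2 and Aldoc made up most of the astrocyte sums given next, and P2ry12 had the highest level of the microglia markers. Summed levels of astrocyte markers were between 481 and 600.3 CPM in the knockdown and 455 and 559.9 CPM in the control, and those of markers of other neurons between 259.7 and 387 CPM in the knockdown and 244 and 314 CPM in the control. Those of microglia markers were between 22.5 and 33.4 CPM in the knockdown and 24.4 and 27.1 CPM in the control, and those of vessel markers between 10.47 and 19.6 CPM in the knockdown and 6.70 and 11.7 CPM in the control, with Kcnj8 at 0 in 1 library. The part of these cells in the values below was not tested, and in such bulk libraries fewer cells of a type and less RNA per cell cannot be told apart.

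The sequences shown here are the 250 bases before the annotated start of the 4 called genes with the largest decreases, which fell in the same comparison, followed for contrast by those of Ndufb8 and Ndufs3, which were nearly level between the groups. They were copied from RefSeq (GRCm38.p6), run 5′ to 3′ on the gene's strand, and stand in lower case with matches to any of 4 searched motifs in capitals.

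Ndufa8 (chr2:36049339-36049588, minus strand): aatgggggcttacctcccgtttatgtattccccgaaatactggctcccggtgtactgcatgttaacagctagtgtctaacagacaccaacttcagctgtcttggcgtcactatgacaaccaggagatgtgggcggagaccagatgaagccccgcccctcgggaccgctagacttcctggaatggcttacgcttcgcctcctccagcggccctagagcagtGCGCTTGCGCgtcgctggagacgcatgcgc
Ndufa1 (chrX:37191239-37191488, minus strand): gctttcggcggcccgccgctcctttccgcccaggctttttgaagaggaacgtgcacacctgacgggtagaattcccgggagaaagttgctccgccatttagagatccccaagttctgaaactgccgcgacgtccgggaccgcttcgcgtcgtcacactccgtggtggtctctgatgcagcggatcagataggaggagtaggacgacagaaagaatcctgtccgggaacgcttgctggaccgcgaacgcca
Ndufb2 (chr6:39592315-39592564, plus strand): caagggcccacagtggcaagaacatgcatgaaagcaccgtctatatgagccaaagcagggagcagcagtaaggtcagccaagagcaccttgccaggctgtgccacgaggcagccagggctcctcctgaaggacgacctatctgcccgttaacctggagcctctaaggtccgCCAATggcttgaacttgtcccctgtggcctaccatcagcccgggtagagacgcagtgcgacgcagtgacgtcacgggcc
Ndufa9 (chr6:126849145-126849394, minus strand): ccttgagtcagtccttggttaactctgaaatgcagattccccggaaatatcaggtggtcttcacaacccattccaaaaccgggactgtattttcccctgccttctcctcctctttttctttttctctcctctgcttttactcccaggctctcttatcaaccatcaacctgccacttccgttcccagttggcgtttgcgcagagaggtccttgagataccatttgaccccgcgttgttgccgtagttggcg
Ndufb8 (chr19:44555443-44555692, minus strand): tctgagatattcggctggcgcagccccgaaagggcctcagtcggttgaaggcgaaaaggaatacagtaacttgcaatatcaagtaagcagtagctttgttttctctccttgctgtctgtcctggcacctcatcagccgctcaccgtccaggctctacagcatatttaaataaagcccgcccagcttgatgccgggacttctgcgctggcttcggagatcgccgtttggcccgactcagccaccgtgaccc
Ndufs3 (chr2:90904722-90904971, minus strand): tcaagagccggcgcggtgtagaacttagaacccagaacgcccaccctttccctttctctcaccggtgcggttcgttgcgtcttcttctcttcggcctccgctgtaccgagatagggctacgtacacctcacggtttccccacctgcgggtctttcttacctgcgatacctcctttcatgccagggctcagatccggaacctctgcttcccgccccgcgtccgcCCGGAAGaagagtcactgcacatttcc

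The motifs were the NRF1 site (GCGCA, then any base, then GCGC), the ETS core CCGGAAG bound by GABP, the YY1 core AAGATGG, and CCAAT, each on both strands. NRF1 and GABP are known regulators of nuclear genes for respiratory subunits. The NRF1 letters stood, on the other strand, in the window of Ndufa8 and in 7 of the 37 Nduf genes with a promoter in the table (18.9%), against 7.10% of 13117 tested genes with a promoter. Among the 8 called Nduf genes 1 window had the NRF1 letters, and among the 29 others 6 had them. The ETS letters occurred in 10.8% of Nduf windows, against 11.8% of tested genes, and the CCAAT letters in 35.1%, against 35.9%. The YY1 letters occurred in no Nduf window, against 4.13% of tested genes. The share of A and T in the window had a median of 41.2% in called Nduf genes, 42.4% in the other Nduf genes and 41.2% in all tested genes. Some windows that are not printed lie partly or wholly within the gene's own span. Among them are those of Ndufa13, Ndufs7, Ndufa10 and Ndufa5, of which Ndufa5 has the NRF1 letters. A match is a description of letters and not of binding.

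Satb1 knockdown was compared with the scrambled hairpin to see which transcripts differ in these neurons when Satb1 is reduced. Among the 38 subunit genes 7 fell and 31 did not pass. Among the 4 assembly factor genes 1 fell and 3 did not pass. No Nduf gene rose. Over all tested genes 21.1% were called, 12.6% lower and 8.48% higher. The subunit share called lower was 18.4%, and in the range of levels that the subunits other than Ndufa4l2 span (97.3 to 596 CPM) 31.5% of 2162 tested genes were called lower. In edgeR 15 Nduf genes had an unadjusted p under 0.05 in the lower direction and 0 in the higher, beside 18.5% of tested genes lower and 15.1% higher at that p, and DESeq2 and limma-voom also called 0 higher. With total-count scaling 3 subunit genes fell (Ndufa8, Ndufa1 and Ndufa9), beside 5.8% of tested genes lower and 16.5% higher, and the calls of Ndufb2, Ndufc1, Ndufab1, Ndufa3 and Ndufaf1 were lost. The calls of Ndufa8, Ndufa1, Ndufa9 and Ndufab1 held in each fit with 1 library left out. The range of levels was chosen as a background after the values were seen.

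The summed level of the 38 subunit genes was 7604, 7488 and 6916 CPM in knockdown libraries 1 to 3, against 8794, 8256 and 7965 CPM in control libraries 1 to 3. The groups did not overlap on this scale. As a share of all deposited counts, with no other scaling, the subunits took 0.829%, 0.780% and 0.725% in knockdown libraries 1 to 3, against 0.839%, 0.785% and 0.737% in control libraries 1 to 3. These shares overlapped almost fully. TMM factors were between 1.04 and 1.09 in knockdown libraries and between 0.925 and 0.955 in control libraries. The median log2 fold change of the subunit genes was -0.16 beside 0.013 for all tested genes. With total-count scaling it was 0.007 for the subunit genes and 0.18 for all tested genes, so the difference between the subunits and all genes was -0.18 with TMM and -0.17 with total counts. It was -0.11 without knockdown library 3, -0.13 without control library 1 and -0.14 with a filter at a mean of 1 CPM. The median of tested genes in the subunits' range of levels was -0.15 with TMM.

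**Figure D1:**
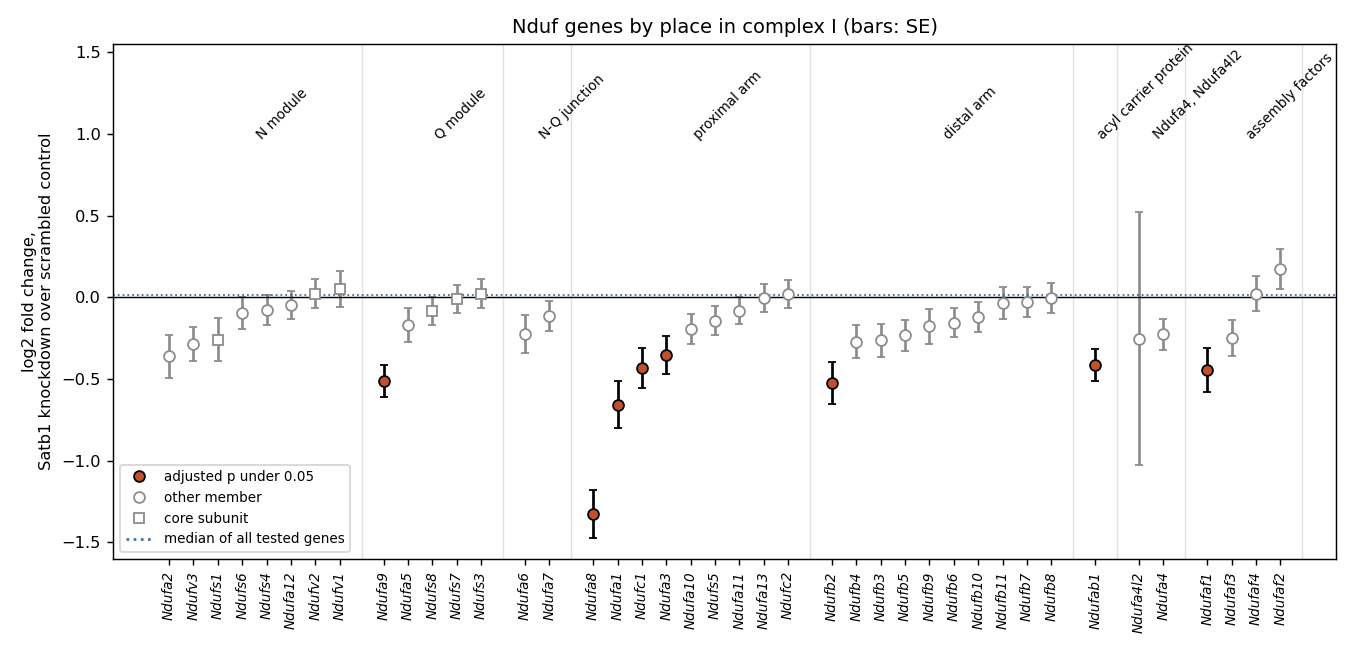
Log2 fold change (vertical axis, Satb1 knockdown over scrambled control, TMM scaling) of 41 of the 42 Nduf genes with its SE, grouped along the horizontal axis by place in complex I, with core subunits as squares and called genes filled. Ndufa8 lies lowest at -1.33, and the 6 core subunits shown lie between -0.26 and 0.049. Of the 9 genes of the proximal membrane arm 4 were called lower, and the calls of Ndufc1 and Ndufa3 among them were lost with total-count scaling. The share called lower was 12.6% over all tested genes and 31.5% in the range of levels of the subunits other than Ndufa4l2.

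Ndufa8, a CHCH-domain accessory subunit on the intermembrane face of the proximal membrane arm, fell the most of all Nduf genes. Its level was 52.9, 70.7 and 42.9 CPM in knockdown libraries 1 to 3, against 142, 139 and 136 CPM in control libraries 1 to 3. Every knockdown library lay far below every control library, with knockdown library 2 the highest of its group. The group means were 55.5 ± 14.1 CPM in the knockdown and 139 ± 2.85 CPM in the control (SD, n = 3 each). The level in the control was 2.51 times that in the knockdown, and the log2 fold change was -1.33 ± 0.15 (SE; adjusted p = 0.000312). Ndufa8 (gene identifier 68375) lies in GRCm38 on chromosome 2, from 36036324 to 36049338 on the minus strand, and its exons overlap no other annotated gene. The call held without any single library and in every alternative tried, with log2 fold changes between -1.54 and -1.16 when 1 library was left out. As a share of all subunit counts, which needs no scaling between libraries, Ndufa8 made up 0.696%, 0.944% and 0.620% in knockdown libraries 1 to 3, against 1.62%, 1.69% and 1.71% in control libraries 1 to 3.

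Ndufa1, Ndufc1 and Ndufa3, small membrane proteins of the same proximal arm, also fell. Ndufa1, an X-linked subunit needed for assembly of the complex, had 110.1, 122 and 79.9 CPM in knockdown libraries 1 to 3, against 181, 167 and 144 CPM in control libraries 1 to 3. The groups did not overlap, and knockdown library 3 was the lowest. Its log2 fold change was -0.66 ± 0.14 (SE; adjusted p = 0.00698), and the gene lies on chromosome X, from 37187588 to 37191238 on the minus strand. Ndufc1 had 172, 172 and 126 CPM in knockdown libraries 1 to 3, against 223, 218 and 195 CPM in control libraries 1 to 3, and its log2 fold change was -0.43 ± 0.12 (SE; adjusted p = 0.023). Its call was lost without knockdown library 3, control library 1 or control library 2, where the adjusted p was between 0.0547 and 0.0854. Ndufa3 stood just inside the threshold, with 142, 152 and 115 CPM in knockdown libraries 1 to 3, against 192, 174 and 156 CPM in control libraries 1 to 3. Its log2 fold change was -0.35 ± 0.12 (SE; adjusted p = 0.0481), and the call was lost without knockdown library 1 or 3, without control library 1 or 2 (adjusted p between 0.105 and 0.168), with relative log expression scaling (0.0584) and with a filter at a mean of 1 CPM (0.0565). Exons of Ndufa3 overlap Tfpt on the opposite strand.

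The other 5 genes of the proximal arm did not pass the test. Ndufa10, a nucleoside kinase-like subunit, had 146, 159 and 169.8 CPM in the knockdown and 181, 174 and 188 CPM in the control and a log2 fold change of -0.19 ± 0.092 with no overlap. Ndufs5, another CHCH-domain subunit, had a log2 fold change of -0.14 and no overlap either. The values were -0.083 for Ndufa11, -0.006 ± 0.087 for Ndufa13, which is also known as GRIM-19, and 0.022 ± 0.086 for Ndufc2, and their groups overlapped. Ndufa8 and Ndufa13 thus differed widely within the same arm: Ndufa13 had 371, 342 and 328 CPM in the knockdown and 363, 348 and 334 CPM in the control.

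Ndufa9, a Q module subunit that binds NADPH near the junction with the membrane, had 151, 183 and 164 CPM in knockdown libraries 1 to 3, against 219, 244 and 248 CPM in control libraries 1 to 3. Its groups did not overlap, and its log2 fold change was -0.52 ± 0.099 (SE; adjusted p = 0.00351). It lies on chromosome 6, from 126821863 to 126849144 on the minus strand, and its exons overlap 1700018A23Rik on the opposite strand. Ndufb2, a small membrane protein of the distal arm, had 152, 149.5 and 109.9 CPM in knockdown libraries 1 to 3, against 215, 201 and 175 CPM in control libraries 1 to 3, and its log2 fold change was -0.52 ± 0.13 (SE; adjusted p = 0.0123). Without control library 1 its adjusted p was 0.0519. It lies on chromosome 6, from 39592565 to 39599843 on the plus strand, and its annotated exons overlap genes on both strands, so its value is uncertain. Of all members 3 have an exon overlap on the same strand, Ndufb2, Ndufb8 (with Gm20538) and Ndufb9 (with Gm49356), and 14 have one on the opposite strand, so the values of these genes carry the same limit. Ndufab1, the mitochondrial acyl carrier protein, which also serves fatty acid and iron-sulfur cluster synthesis, had 163, 159.7 and 151 CPM in knockdown libraries 1 to 3, against 234, 208 and 189.8 CPM in control libraries 1 to 3. Its groups did not overlap, and its log2 fold change was -0.41 ± 0.098 (SE; adjusted p = 0.0104). Its exons overlap Gm44986 on the opposite strand.

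**Figure D2:**
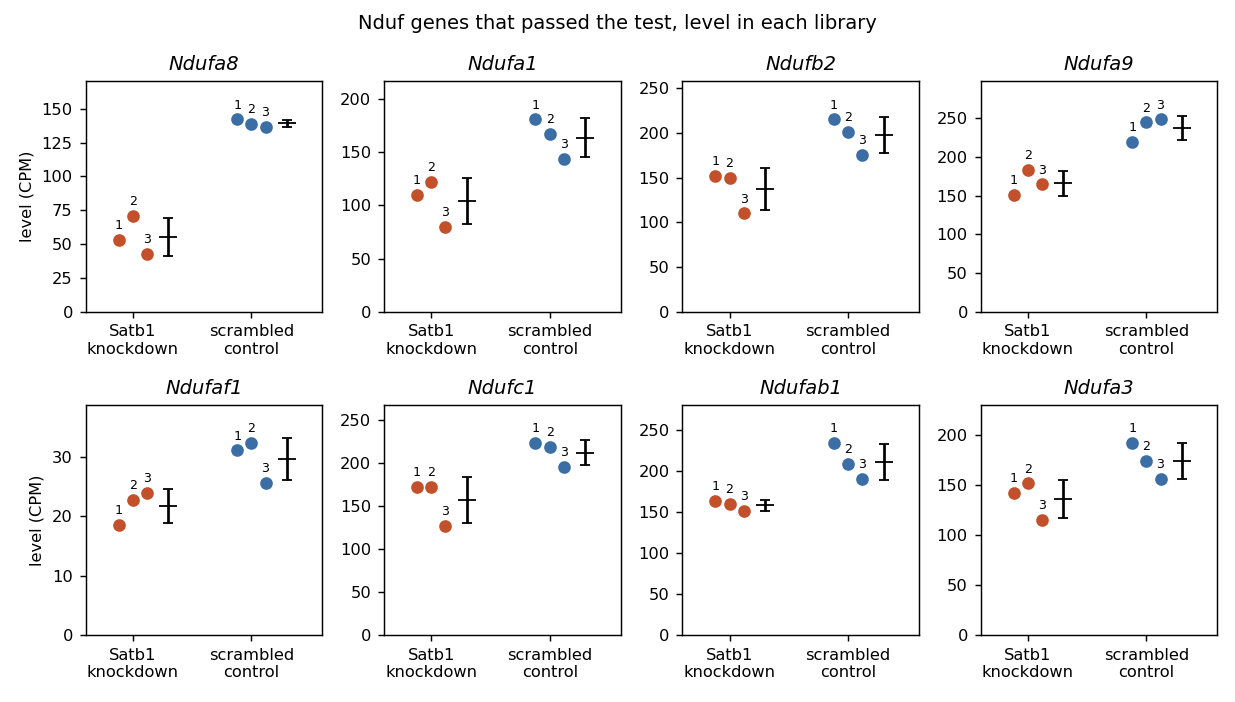
Level in CPM (vertical axes, from 0) of the 8 called Nduf genes in each library, with knockdown libraries left of control libraries, library numbers beside the points, and the mean and SD of each group as a bar. In all 8 panels the highest knockdown library lies below the lowest control library, by the widest gap for Ndufa8 (70.7 against 136 CPM). The genes drawn were chosen by the test on these same libraries, and that choice favours such gaps.

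Of the 7 core subunit genes 0 passed the test in edgeR, with 0 at an unadjusted p under 0.05, and DESeq2 and limma-voom called 0 as well. Over all tested genes 12.6% were called lower, and the difference from that share was not tested. An edgeR fit that paired libraries by number, a pairing the labels do not give, called Ndufs1 (log2 fold change -0.27, adjusted p = 0.0197). The log2 fold changes of the core genes were between -0.26 and 0.049 with a median of -0.010, and with total-count scaling 6 of the 7 were above 0. Ndufs1, the large iron-sulfur subunit of the N module, had 94.98, 111 and 135 CPM in knockdown libraries 1 to 3, against 125, 128 and 156 CPM in control libraries 1 to 3. The groups overlapped, and knockdown library 3 and control library 3 were the highest of their groups (log2 fold change -0.26 ± 0.13, adjusted p = 0.186). Ndufv1, which holds the flavin and the NADH site, had 168, 196 and 216 CPM in the knockdown and 181, 174 and 205 CPM in the control, and its log2 fold change was 0.049 ± 0.11. Ndufv2, its iron-sulfur partner, had 202, 183 and 186 CPM in the knockdown and 195, 183 and 185 CPM in the control (0.022 ± 0.088). Both were level between the groups within the spread of the libraries. In the Q module, Ndufs7, which passes electrons to ubiquinone, had 192, 186 and 178 CPM in the knockdown and 190.5, 186 and 182 CPM in the control (-0.010 ± 0.085). Ndufs3 had 172, 166 and 189 CPM in the knockdown and 169.5, 176 and 175 CPM in the control (0.020 ± 0.089), and its groups overlapped as well. Ndufs8 had 138, 132 and 134 CPM in the knockdown and 148, 139.5 and 142 CPM in the control, with every knockdown library below every control library, but the difference of -0.087 ± 0.086 was about as large as its error and did not pass. Ndufs1 was at -0.39 without knockdown library 3 (adjusted p = 0.0472), at -0.14 without knockdown library 1 (0.555) and at -0.15 without control library 3 (0.508).

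Among the accessory subunits of the matrix arm, Ndufa2 and Ndufv3 of the N module lay nearest outside the threshold. Ndufv3 had 252, 250.2 and 200.2 CPM in the knockdown and 302, 284 and 269.6 CPM in the control, and its log2 fold change was -0.28 ± 0.10 (SE; adjusted p = 0.0707). Ndufa2 had 218, 222 and 159 CPM in the knockdown and 285, 262 and 223 CPM in the control (log2 fold change -0.36 ± 0.13, adjusted p = 0.0711), and it was called without control library 3 (adjusted p = 0.0473) and by DESeq2 (0.0391). Without knockdown library 3 its log2 fold change was -0.21 (adjusted p = 0.219), and with total-count scaling -0.19 (0.335). The edgeR fit that paired libraries by number called both Ndufa2 (adjusted p = 0.00209) and Ndufv3 (0.00821). In both genes, knockdown library 3 was the lowest and the groups did not overlap. Ndufs4, Ndufs6 and Ndufa12, also of the N module, were at -0.078, -0.098 and -0.050, and Ndufa5 of the Q module was at -0.17. Ndufa6 and Ndufa7, which sit where the N and Q modules meet, were at -0.23 and -0.12. None of these 6 passed, and their groups overlapped.

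Of the 10 distal arm genes 1, Ndufb2, fell, beside 12.6% of all tested genes called lower. Ndufb3, Ndufb4 and Ndufb5 had log2 fold changes of -0.27, -0.27 and -0.23 with no overlap between the groups, and adjusted p-values between 0.0779 and 0.0985. Ndufb5 had 392, 371 and 344 CPM in the knockdown and 477, 415 and 407 CPM in the control. Ndufb6 (-0.16) also did not overlap. Ndufb9 (-0.18), Ndufb10 (-0.12), Ndufb11 (-0.035), Ndufb7 (-0.030) and Ndufb8 (-0.006) overlapped. Over all Nduf genes, 18 of 42 had every knockdown library below every control library and none had the opposite, beside 20.8% and 17.9% of all tested genes. This count rests on TMM-scaled levels, and the share among genes in the subunits' range of levels was not taken.

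Ndufa4, now placed in cytochrome c oxidase, had the highest level of all members per transcript length, 900.5 ± 62.2 RPKM in the knockdown and 1055 ± 104 RPKM in the control (RPKM, the CPM divided by the length of the principal annotated transcript in kilobases; SD, n = 3 each). It had 592, 537 and 519 CPM in the knockdown and 713, 628 and 588 CPM in the control. The groups overlapped, and its log2 fold change was -0.23 ± 0.095 (SE; adjusted p = 0.108). Its paralog Ndufa4l2, which is known as a hypoxia-induced gene and a marker of brain pericytes, was low, with 62, 61 and 40 counts in knockdown libraries 1 to 3 and 28, 36 and 116 counts in control libraries 1 to 3. Control library 3 was the highest and the other control libraries the lowest, so no direction can be read (log2 fold change -0.25 ± 0.78).

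Of the assembly factors, Ndufaf1, part of the complex that assembles the membrane arm, fell. It had 18.5, 22.8 and 23.96 CPM in knockdown libraries 1 to 3, against 31.1, 32.3 and 25.6 CPM in control libraries 1 to 3. The groups were separated by a narrow gap, between knockdown library 3 and control library 3, and the log2 fold change was -0.45 ± 0.14 (SE; adjusted p = 0.0336). The call was lost without knockdown library 1 or 2 and without control library 1 or 2, with adjusted p-values between 0.0515 and 0.151. Ndufaf3, which works with Ndufaf4 on the Q module, had 55.4, 57.9 and 48.3 CPM in the knockdown and 68.2, 66.0 and 58.0 CPM in the control (log2 fold change -0.25 ± 0.11, adjusted p = 0.127). The groups did not overlap, but knockdown library 2 and control library 3 differed by under 0.1 CPM. Ndufaf4 had 48.4, 47.0 and 43.0 CPM in the knockdown and 49.8, 44.1 and 42.6 CPM in the control (0.020 ± 0.11). Ndufaf2, a paralog of the subunit gene Ndufa12, had 60.2, 56.6 and 57.5 CPM in the knockdown and 60.2, 42.8 and 51.4 CPM in the control, the most positive value of the family (0.17 ± 0.12, adjusted p = 0.351), and its groups overlapped. Per transcript length the assembly factors lay between 12.7 and 85.7 RPKM in the knockdown and between 12.5 and 75.9 RPKM in the control.

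The genes now called Ndufaf5 to Ndufaf8 are in the table under older names and were matched by gene identifier after the values of the family had been seen. Of the 4, edgeR called 0, with 0 at an unadjusted p under 0.05, with log2 fold changes of -0.12 for Ndufaf5, -0.099 for Ndufaf6, -0.017 for Ndufaf7, an arginine methyltransferase, and -0.10 for Ndufaf8. Of 9 tested assembly genes without the Nduf name 3 fell (33.3%) and none rose, beside 12.6% of all tested genes lower and 8.48% higher. The smallest p-values were those of Tmem70, which had 38.3, 39.0 and 37.1 CPM in the knockdown and 53.3, 52.7 and 54.9 CPM in the control (log2 fold change -0.49 ± 0.097, adjusted p = 0.00391), and Bcs1l, best known for complex III assembly, which had 13.7, 16.7 and 14.6 CPM in the knockdown and 20.7, 20.5 and 21.8 CPM in the control (log2 fold change -0.48 ± 0.12, adjusted p = 0.0161).

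**Figure D3:**
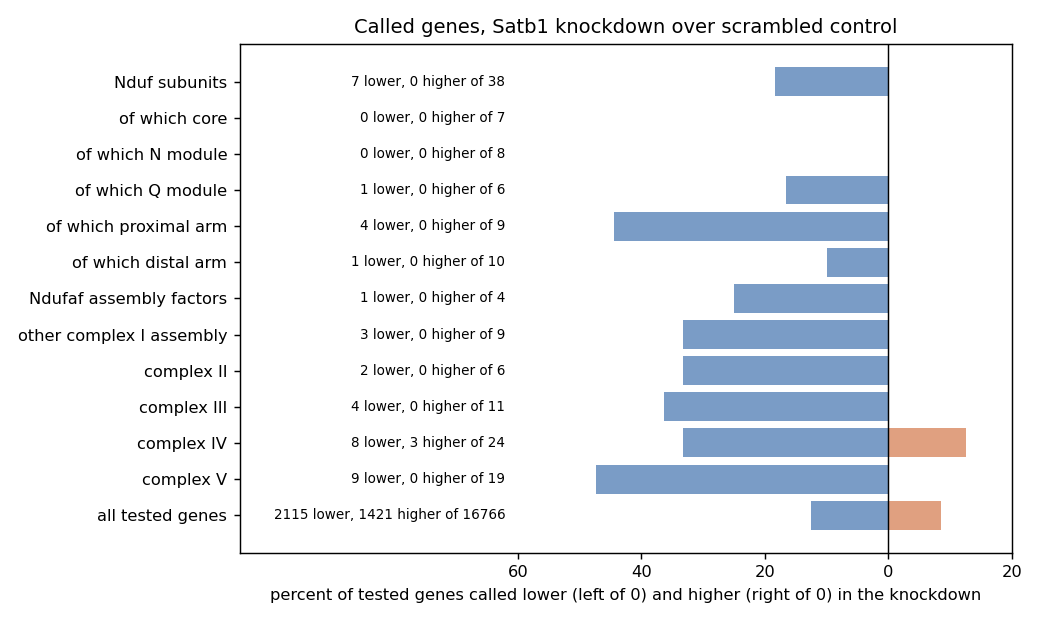
Percent of tested genes called lower (bars left of 0) and higher (bars right of 0) in Satb1 knockdown over scrambled control, with the counts beside each bar, for Nduf subunits and their divisions, assembly factors, complexes II to V and all tested genes. The lists of complexes II to V also hold assembly genes. The bar for Nduf subunits (7 of 38, 18.4%) is longer than that for all tested genes (12.6%), and the bars for core subunits and the N module are at 0. Among the 2162 tested genes in the range of levels of the subunits other than Ndufa4l2, which are not drawn, 31.5% were called lower.

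The other respiratory complexes had larger shares of called genes, although the difference from complex I was not tested. Of 60 tested genes of complexes II to V 23 fell (38.3%) and 3 rose with TMM scaling, with a median log2 fold change of -0.24, beside -0.16 for the complex I subunits. The shares of all tested genes were 12.6% lower and 8.48% higher. In the range of levels of the complex I subunits other than Ndufa4l2, 31.5% of tested genes were lower. The genes of complexes II to V were not matched to that range. The lists of complexes II to V also hold assembly genes, so the sets are not alike. For all 42 Nduf genes, with the assembly factors, the median was also -0.16. In complex II 2 of 6 fell, namely the iron-sulfur subunit gene Sdhb (-0.55 ± 0.093) and the membrane anchor gene Sdhd (-0.37 ± 0.096). In complex III 4 of 11 fell, led by Uqcr10 (-0.79 ± 0.14) and the Rieske protein gene Uqcrfs1 (-0.46 ± 0.084). In complex IV 8 of 24 fell, among them the assembly gene Cox18 (-1.24 ± 0.20), and 3 rose, among them Cox6b2 (1.67 ± 0.24). In ATP synthase 9 of 19 fell, led by Atp5d (-0.51 ± 0.087) and Atp5o (-0.47 ± 0.086). Of 17 regulators of mitochondrial gene expression and biogenesis 2 fell, Polg (-0.68 ± 0.17), the mitochondrial DNA polymerase, and Peo1 (-0.43 ± 0.12), the mitochondrial helicase, and 2 rose, Ppargc1a (0.30 ± 0.093) and Tfb1m (0.56 ± 0.15). The share of regulators called lower, 11.8%, was near the 12.6% of all tested genes.

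In their order from low to high, the knockdown libraries ran 3, 1, 2 for Satb1, and the same order was seen in 3 of the 8 called Nduf genes (37.5%), Ndufa8, Ndufa1 and Ndufa3, against 46.2% of all genes called lower.

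The shares of single genes in the subunit pool differed between the groups. Expressed as a share of all subunit counts in the same library, 7 genes were lower in every knockdown library than in every control library, namely Ndufa8, Ndufa1, Ndufb2, Ndufa9, Ndufc1, Ndufab1 and Ndufv3. There were 11 with the opposite order, namely Ndufa11, Ndufa12, Ndufa13, Ndufb7, Ndufb8, Ndufc2, Ndufs3, Ndufs5, Ndufs6, Ndufs7 and Ndufv2, and 20 overlapped. The shares of 1 library sum to all its subunit counts, so a lower share of some genes goes with a higher share of others. A higher share is thus not a higher level, and none of the 11 was called higher. Ndufs5, with higher shares in every knockdown library, had 168, 164 and 150 CPM in the knockdown and 182, 178 and 172 CPM in the control. Such orders were not counted for genes outside the subunit pool. Ndufa13 made up 4.88%, 4.57% and 4.74% in knockdown libraries 1 to 3, against 4.13%, 4.22% and 4.20% in control libraries 1 to 3.

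**Figure D4:**
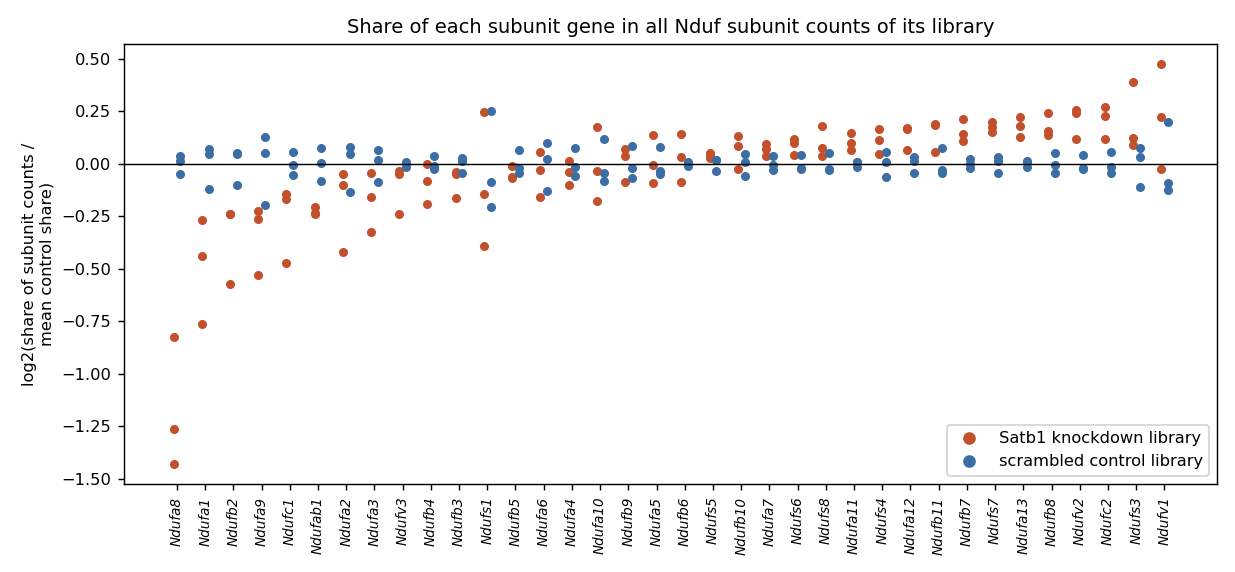
Share of single subunit genes in all Nduf subunit counts of its library, relative to the mean control share (vertical axis, log2), for the knockdown and control libraries, with Ndufa4l2 left out for its low counts and genes ordered by mean. Ndufa8 stands apart at the left, with shares between 0.620% and 0.944% in the knockdown and between 1.62% and 1.71% in the control.

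Transcript length and neighbouring genes were set beside these values, with length classes chosen after the values were seen. Of the 42 members 23 have a principal transcript under 1000 bases, and their median log2 fold change was -0.16, with -0.081, -0.11 and -0.24 in knockdown libraries 1 to 3 against the control mean. The 827 tested genes of that length had medians of 0, -0.049 and -0.17 in the same libraries, and 0.077, -0.011 and -0.090 in control libraries 1 to 3. Genes of 4000 bases or more had medians of -0.025, -0.031 and 0.050 in knockdown libraries 1 to 3. The part of transcript length in the values of Ndufa8, Ndufa1 and Ndufa3, which are that short and were lowest in knockdown library 3, was not tested. There were 16 members with a protein-coding gene that starts on the opposite strand within 1000 bases. Of these 16 neighbours 2 were called lower, beside 12.6% of all tested genes. They were Eef1b2 beside Ndufs1 (-0.70 ± 0.15, adjusted p = 0.00712) and Wdr4 beside Ndufv3 (-0.56 ± 0.13, adjusted p = 0.00836), while Ndufs1 and Ndufv3 did not pass. The neighbours of the called genes Ndufa8 and Ndufa1 did not pass: Morn5, which starts 52 bases from Ndufa8, was at 0.965 CPM in the knockdown and 0.663 CPM in the control, and Rnf113a1, 82 bases from Ndufa1, at 8.85 CPM in the knockdown and 11.1 CPM in the control (-0.33 ± 0.18).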

How the data were processed

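The authors deposited gene-level read counts, not normalized, for 6 libraries. The submitters' processing notes list TopHat2 2.0.8 and mm10. How reads were counted, whether strand was used, and how reads with several alignments were treated is not given in the sources used here, so overlapping genes and near-identical copies could share reads. Groups and numbers came from the sample titles, which say siRNA where the treatment text says shRNA. The counts were tested as deposited with edgeR 4.0.16 in R 4.3.3 (quasi-likelihood F-test, TMM scaling, filterByExpr at a minimum count of 10 and a minimum total of 15, Benjamini-Hochberg over 16766 genes, threshold 0.05, 2-sided). Standard errors were derived from the F statistic. The test was checked on simulated counts, with changes set in genes of all levels. It recovered 37% of 1.5-fold and 65% of 2-fold changes and called 3 unchanged genes, so a gene that did not pass may still differ. Recovery at the levels of the Nduf genes was not measured apart, so these shares may not hold for them. Alternatives used DESeq2 1.42.0, limma 3.58.1 (voom), other scalings and filters, a replicate block, and each library left out. Replicates were no copies of each other (mean chi-square per gene between 58.5 and 156).

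The members and lists were chosen with earlier results of these data known. Values are given in every library for called members, core subunits (except 1), assembly factors, Ndufa4 and Ndufa4l2 and the members next to the threshold; in other lists the called genes with the smallest p are named, at most 2. Ppargc1a and Tfb1m were added to these after their values were seen. Other members named with values were chosen after these were seen. All 42 members matched RefSeq (GRCm38.p6) by gene identifier; transcript lengths, strands and exon overlaps came from GENCODE M21 on the same build. The isoforms in use were not measured, so RPKM values are approximate. Windows for printed promoters lie outside the gene's own span. The values of 1 member are not reported here, and it stays in the counts, sums and medians.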

Additional observations from a re-analysis of the deposited data

How the results depend on the processing

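Of the 42 Nduf genes, 3 were called lower with total-count scaling (Ndufa8, Ndufa1 and Ndufa9, all subunits, with 5.8% of all genes lower and 16.5% higher), no assembly factor was, and none was called higher in edgeR under any alternative. That scaling moved the median log2 fold change of all genes to 0.18, of the subunits to 0.007 and of the assembly factors to 0.053. The replicate block gave 15 subunits and 2 assembly factors lower, and over all genes 1924 higher and 2789 lower, against 1421 and 2115 without it. The Nduf genes that the block added were Ndufa2, Ndufa4, Ndufa6, Ndufaf3, Ndufb3, Ndufb4, Ndufb5, Ndufs1 and Ndufv3. Same-numbered libraries correlated at 0.056, 0.013 and 0.108 after group means were removed, and not every library correlated best with its own number, so the numbers are not taken to pair the libraries. Leaving out 1 library gave between 4 and 8 subunits and between 0 and 1 assembly factors lower, with medians between -0.17 and -0.094 for subunits and between -0.17 and -0.040 for assembly factors. Without a low-count filter, or with limma-voom, 8 Nduf genes were lower, with DESeq2 9, and with relative log expression scaling or a mean of at least 1 CPM 7. Ndufa4l2 gave no value under the latter filter.

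Some values that were not called changed sign, from values between -0.25 (Ndufa4l2) and 0.049 (Ndufv1), and the cause was not tested. With total-count scaling they were 0.0851 for Ndufa11, 0.12 for Ndufa12, 0.16 for Ndufa13, 0.000183 for Ndufa5, 0.0525 for Ndufa7, 0.0471 for Ndufb10, 0.13 for Ndufb11, 0.0136 for Ndufb6, 0.14 for Ndufb7, 0.16 for Ndufb8, 0.0908 for Ndufs4, 0.026 for Ndufs5, 0.071 for Ndufs6, 0.16 for Ndufs7 and 0.082 for Ndufs8. With relative log expression scaling they were 0.00679 for Ndufa13, 0.00726 for Ndufb8 and 0.00284 for Ndufs7, and with DESeq2 0.0068 for Ndufa13, 0.00726 for Ndufb8 and 0.00285 for Ndufs7. With a mean of at least 1 CPM they were 0.0396 for Ndufa13, 0.0108 for Ndufb11, 0.0162 for Ndufb7, 0.0395 for Ndufb8 and 0.0355 for Ndufs7. The replicate block gave 0.0761 for Ndufa4l2 and limma-voom 0.0661 for Ndufa4l2. With 1 library left out, values ran between -0.0494 and 0.0479 for Ndufa13, -0.61 and 0.70 for Ndufa4l2, -0.0263 and 0.0879 for Ndufaf4, -0.0727 and 0.0597 for Ndufb11, -0.0785 and 0.0468 for Ndufb7, -0.060 and 0.0691 for Ndufb8, -0.0182 and 0.0524 for Ndufc2, -0.0209 and 0.0605 for Ndufs3, -0.0285 and 0.0329 for Ndufs7, -0.0232 and 0.15 for Ndufv1, -0.0158 and 0.053 for Ndufv2. Depth does not limit these genes except Ndufa4l2, whose counts were between 28 and 116.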
